A study of Homo sapiens with 24 samples.

Results

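The genes described here are 10 antiviral effectors that interferons switch on, namely MX1, MX2, XAF1, IFI6, IFI27, IFI44, IFI44L, RSAD2, CMPK2 and BST2. They were chosen by name, from a list drawn up with earlier results of these data known, in which XAF1 and MX2 were among the largest changes in A549 cells. All 10 symbols matched an Ensembl gene, so the set holds 10 of the 60236 genes in the deposited table. The list does not say in which A549 comparison those changes were seen. Differences that involve the A549 libraries given eGFP or SF3B2, where the changes were largest, are therefore described only, and counts past a threshold there support nothing. The A549 scramble and snaR-A libraries were tested, but they are not independent of the choice either, since scramble is the reference of those differences.

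Type I and type III interferons are secreted by cells that sense foreign nucleic acid in the cytoplasm or in endosomes. They bind receptors on the same and on neighbouring cells, and JAK kinases then activate transcription factors that enter the nucleus. There they bind the interferon-stimulated response element (ISRE) in the promoters of a large group of genes, whose products interfere with entry, replication, assembly or release of viruses.

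The libraries came from a study that overexpressed the noncoding RNA snaR-A, or the U2 snRNP subunit SF3B2, to ask how each changes the processing of mRNA. HEK293T, a human embryonic kidney line, and A549, a human lung adenocarcinoma line, were each transfected with 1 of 4 plasmids using Lipofectamine 3000, and RNA was collected after 48 h. The groups are HEK293T scramble, HEK293T snaR-A, HEK293T eGFP and HEK293T SF3B2, and the same 4 plasmids in A549, with 3 libraries in each of the 8 groups. The labels name no untransfected cells among them, so every group had received plasmid and lipid. Both RNAs, snaR-A and its scrambled sequence (scramble), were driven by a U6 promoter, whereas FLAG-tagged eGFP and SF3B2 were expressed from pcDNA3.1 vectors. The eGFP plasmid thus shares its backbone with SF3B2, while the backbone of the U6 plasmids is not given in the sources used here. The cells were transfected pools, and the tables do not say what share of the cells took up a plasmid. Library totals ran from 195185935 to 260878271 estimated counts. The replicates are described as biological. All levels below are CPM, the counts of a library scaled by its total and by TMM factors over the 24 libraries, unless they are said to be per kilobase of exon.

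The promoters of these genes are shown first, because the letters through which the interferon signal reads them are short and recurrent. RefSeq windows on GRCh38.p14, from 250 bases before to 50 bases after each annotated start, were held for 9 of the 10 genes, MX2 having no entry. The letters GAAANNGAAA, the core of an ISRE, were searched on both strands and occurred in 7 of these 9 genes (MX1, IFI6, IFI27, IFI44, IFI44L, RSAD2 and BST2), in 10 of their 17 windows. Of all 35116 windows in the table, 3.57% held them. The shorter letters GAAANNGAA, which lie within the longer ones, occurred in 8.11% of all windows and added CMPK2, whose match falls in the region it shares with the divergent gene RSAD2. Neither was found in the XAF1 windows. Each line below gives the longer match nearest to an annotated start, or for CMPK2 the shorter one, read 5′ to 3′ on the strand of the gene, with the matching letters in capitals. For IFI44, RSAD2 and CMPK2 the match is on the opposite strand.
MX1: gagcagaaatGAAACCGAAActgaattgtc
IFI6: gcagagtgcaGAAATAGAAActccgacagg
IFI27: cggtttcctgGAAAATGAAAcctatctcat
IFI44: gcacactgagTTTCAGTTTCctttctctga
IFI44L: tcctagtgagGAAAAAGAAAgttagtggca
RSAD2: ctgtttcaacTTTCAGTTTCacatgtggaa
BST2: ctgggaaactGAAACTGAAAacctaattaa
CMPK2: cccgcaacgcTTCGCTTTCgtttcccgct

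The MX1 stretch is chr21:41420559-41420588 on the plus strand, and its match starts 11 bases after the annotated start. The IFI6 stretch, chr1:27672266-27672295 on the minus strand, has its match 93 bases before the start, and IFI6 had 2 more matches further upstream, 115 and 156 bases before it. IFI27 (chr14:94110631-94110660, plus) has the match 95 bases before its start, and IFI44 (chr1:78649761-78649790, plus) 18 bases before. The IFI44L stretch at chr1:78620365-78620394 on the plus strand recurs letter for letter at chr1:78620274-78620303. RSAD2 (chr2:6877622-6877651, plus) carries the longer match 145 bases before its downstream start, whereas the shorter one it shares with CMPK2 (chr2:6865796-6865824, shown on the minus strand) lies 79 bases before the upstream start of RSAD2 and 5 bases after the start of CMPK2. In BST2 (chr19:17405735-17405764, minus), 2 overlapping matches begin 124 and 130 bases before the start. A match of letters is a description of the window and not evidence of binding.

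Libraries that stand apart are described ahead of the comparisons. SF3B2, the overexpressed gene, was at 37666, 29024 and 24053 CPM in the HEK293T SF3B2 libraries and at 48885, 46649 and 45564 CPM in those of A549, against 293 to 367 CPM in the other HEK293T libraries. In A549 it was at 296 to 371 CPM in 8 of the other 9 libraries and at 8773 CPM in scramble replicate 3. For the third A549 snaR-A library, some labels name A549 and others HEK293T as the source. Its A549 markers summed to 20676 CPM and its HEK293T markers to 93.7 CPM, close to the other A549 libraries at 20281 to 22694 CPM and 89.97 to 96.6 CPM. The 10 A549 markers, led by ALDH1A1, summed to 4.09 to 8.24 CPM in 10 HEK293T libraries, with 1 of the 10 markers at 1 CPM or more, but to 744 CPM in HEK293T eGFP replicate 3 (8 of 10 markers at 1 CPM or more, ALDH1A1 at 422 CPM) and to 23.3 CPM in HEK293T SF3B2 replicate 3 (5 of 10, ALDH1A1 at 12.4 CPM). Markers of HEK293T summed to 696 to 1145 CPM in the HEK293T libraries, with 7 of 10 at 1 CPM or more. In the A549 libraries 5 to 6 of these 10 were at 1 CPM or more. With scramble, 8 of the 10 were lower in A549 past the threshold set out below, and 1 was higher, by 9.04 on the log2 scale. Leukocyte markers, which neither line should express, summed to 1.13 to 1.76 CPM in every library, with 2 to 6 of the 8 at 0 and CD14 the most abundant in A549. The main results on the 10 genes that rest on the 4 libraries named here are given with and without them, whereas the group orders and the counts for other pathway genes are given with all libraries.

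The plot of each gene in every library shows how far apart the cell lines lay.

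**Figure D1:**
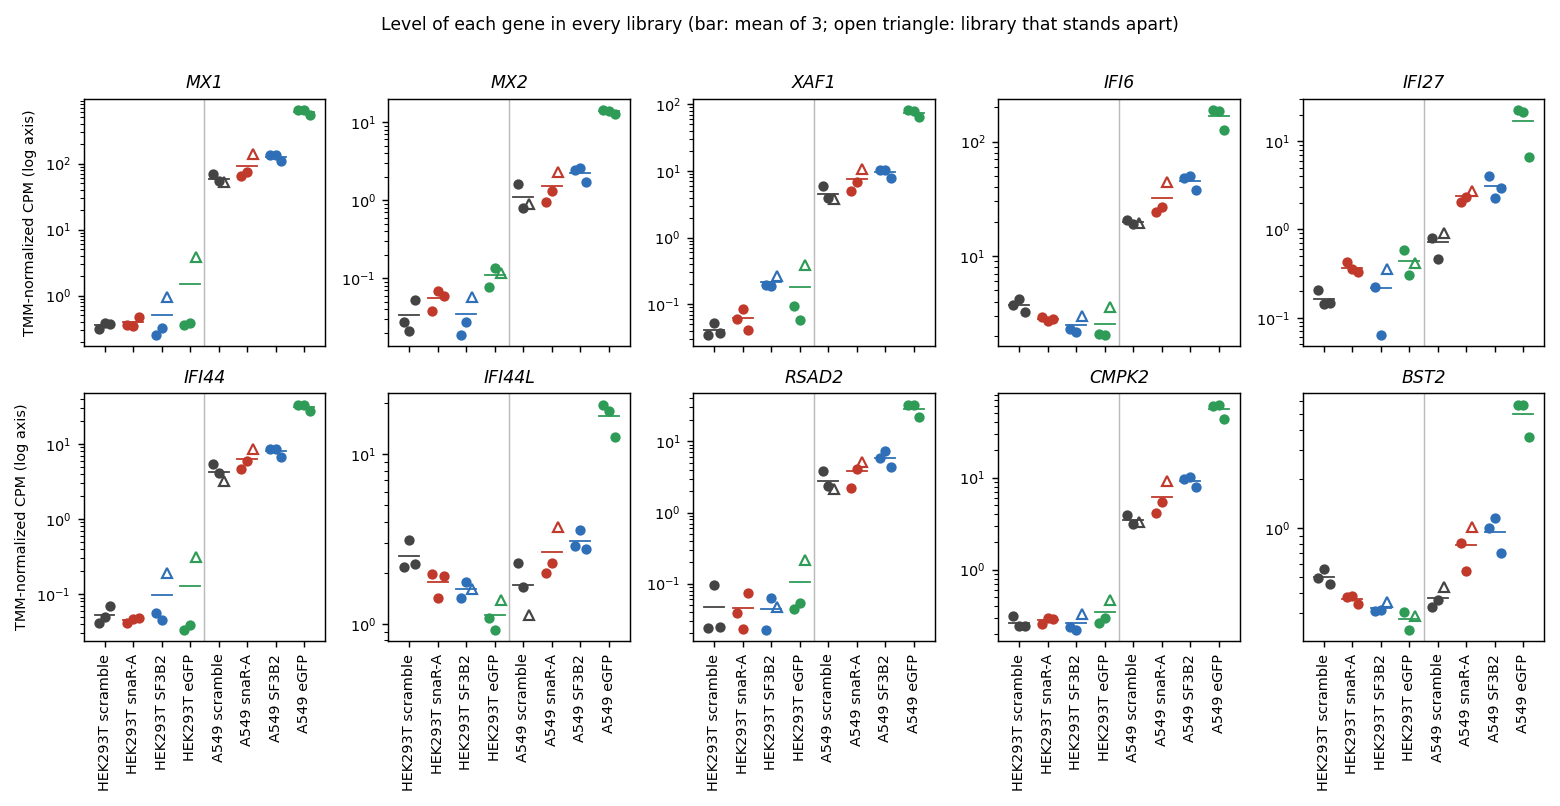
Level of each of the 10 genes in all 24 libraries, as TMM-normalized CPM on a log axis. Points are single libraries, bars are means of 3, colours mark the plasmid, and open triangles mark the 4 libraries that stand apart. In A549 the 3 eGFP points lie above every other A549 point in each panel, while the HEK293T points of MX1, XAF1 and IFI44 lie far below those of A549, and replicate 3 of HEK293T eGFP is the highest of them.

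With the control plasmid scramble, A549 held far more of most of these transcripts than HEK293T. MX1, the cytoplasmic dynamin-like GTPase that blocks influenza and other viruses, was at 70.4, 54.5 and 52.5 CPM in A549 and at 0.308, 0.381 and 0.369 CPM in HEK293T. XAF1, a proapoptotic antagonist of the caspase inhibitor XIAP, was at 6.04, 3.92 and 3.79 CPM against 0.0346, 0.0525 and 0.0369 CPM, the latter resting on 9 to 15 counts a library. Neither gene's groups came near each other. The log2 fold change of A549 over HEK293T was 7.33 for MX1 (SE 0.17, edgeR adjusted p = 3.88e-09) and 6.71 for XAF1 (SE 0.30, edgeR adjusted p = 1.73e-07). Of the 10 genes, 8 were higher in A549 past the threshold, which asks for an adjusted p below 0.05 and a change of more than 1 on the log2 scale, between 2.07 for IFI27 and 7.33 for MX1, and 0 were lower. Of these 8, MX2, XAF1 and RSAD2 had under 10 counts in at least 1 HEK293T library and passed the filter on low counts through A549, where they are high, so their calls add no support. With at least 10 counts in every library 7 genes were tested and 5 passed. Without A549 scramble replicate 3 the number was 8. Over all genes tested, 23.1% passed as higher in A549 and 24.7% as lower, so differences between the lines were common. The median over the 10 was 4.30, against -0.01 over all genes tested.

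IFI44L and BST2 were the exceptions. BST2, or tetherin, which holds budding virus at the cell surface, was at 0.329, 0.363 and 0.433 CPM in A549 and at 0.494, 0.560 and 0.455 CPM in HEK293T, a log2 fold change of -0.49 (SE 0.20, edgeR adjusted p = 0.0516). Every A549 library was below every HEK293T library, as for 39.1% of all genes tested. IFI44L, an interferon-induced protein of poorly known activity, was at 2.30, 1.64 and 1.13 CPM in A549 and 2.16, 3.11 and 2.26 CPM in HEK293T, a log2 fold change of -0.63 (SE 0.27, edgeR adjusted p = 0.0619), with overlapping libraries. Both adjusted p-values lay close to the limit and fell under it in some settings, for instance, in the edgeR test with library size alone, to 0.00523 for BST2 and 0.0056 for IFI44L. In that setting IFI44L had a log2 fold change of -1.04 and passed the threshold as lower in A549. Without A549 scramble replicate 3 they were 0.0338 for BST2 and 0.132 for IFI44L.

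Per kilobase of annotated exon, the levels of the 10 genes in A549 scramble followed the order IFI6, MX1, IFI44, CMPK2, XAF1, RSAD2, BST2, IFI27, IFI44L and MX2, from 21.1 ± 0.749 down to 0.0761 ± 0.0311 CPM per kb (SD, n = 3). The order was identical in A549 eGFP, where the level of IFI6 was 178 ± 37.1 and that of MX2 0.939 ± 0.0557 CPM per kb. Neighbours in it did not all differ beyond their spread. In A549 eGFP, CMPK2 at 12.6 ± 2.36 and XAF1 at 11.4 ± 1.55 CPM per kb overlapped, as did RSAD2 at 5.11 ± 1.10, BST2 at 4.56 ± 1.10 and IFI27 at 4.08 ± 2.16 CPM per kb. In HEK293T scramble, IFI6 was again first at 3.98 ± 0.530 CPM per kb, but BST2 at 0.457 ± 0.0478 and IFI44L at 0.216 ± 0.0450 CPM per kb came next, and MX1 was in the seventh place at 0.0196 ± 0.00219 CPM per kb. These lengths join all annotated exons of a gene, 17984 bases for MX1 and 936 bases for IFI6.

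In A549, the eGFP plasmid came with the highest level of all 10 genes, and scramble with the lowest. The values are described without a test, since these libraries guided the choice of the genes. In the fit over all genes, 10 of 10 lay past the threshold as higher with eGFP than with scramble and 0 as lower, a count that the choice of genes bears on and from which nothing is read, where 0.904% of all genes tested were higher and 0.00463% lower. Their median log2 fold change was 3.50, against -0.01 over all genes tested, and 3.38 without scramble replicate 3. In RNA from a whole culture, more responding cells and more RNA per responding cell cannot be told apart.

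The dynamin-like GTPases lie side by side on chromosome 21 of GRCh38, MX2 (ENSG00000183486) from 41361999 to 41409393 and MX1 (ENSG00000157601) from 41420020 to 41470071, both on the plus strand. MX1 was at 637, 647 and 539 CPM with eGFP, 135, 135 and 111 CPM with SF3B2, 64.6, 75.5 and 139 CPM with snaR-A, and 70.4, 54.5 and 52.5 CPM with scramble. The eGFP mean was 10.3 times the scramble mean, and snaR-A replicate 3 reached the level of the SF3B2 libraries. MX2, which restricts nuclear entry of HIV-1, was at 14.3, 14.0 and 12.8 CPM with eGFP, 2.44, 2.57 and 1.73 CPM with SF3B2, 0.949, 1.31 and 2.30 CPM with snaR-A, and 1.63, 0.800 and 0.896 CPM with scramble. Its eGFP mean was 12.3 times that of scramble, with a gap between the eGFP libraries and all others. Of the 31-base words in the transcripts of MX1 and MX2, 3.06% and 2.90% occur in another gene on the same strand.

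XAF1 (ENSG00000132530, chromosome 17, 6755447 to 6775647, plus strand) was at 82.3, 80.0 and 63.5 CPM with eGFP, 10.4, 10.5 and 7.85 CPM with SF3B2, 5.03, 6.72 and 10.7 CPM with snaR-A, and 6.04, 3.92 and 3.79 CPM with scramble. The eGFP mean was 16.4 times the scramble mean, and SF3B2 kept 12.7% of the eGFP mean, the smallest share among the 10. Within another gene on the same strand, 2.71% of its 31-base words recur, but 36.6% do on either strand. The strand setting used in quantification is not given in the sources used here, although the library kit is stranded.

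The small hydrophobic proteins IFI6 and IFI27 belong to the same family, the former residing in the endoplasmic reticulum and the latter mostly in mitochondria. IFI6 (ENSG00000126709, chromosome 1, 27666064 to 27672212, minus strand) was at 189, 185 and 127 CPM with eGFP, 48.1, 50.1 and 37.8 CPM with SF3B2, 24.5, 26.9 and 44.4 CPM with snaR-A, and 20.6, 19.2 and 19.5 CPM with scramble. IFI27 (ENSG00000165949, chromosome 14, 94104836 to 94116695, plus strand) was at 22.5, 21.6 and 6.58 CPM with eGFP, 4.06, 2.29 and 2.94 CPM with SF3B2, 2.04, 2.35 and 2.69 CPM with snaR-A, and 0.790, 0.460 and 0.922 CPM with scramble. IFI27 had the largest ratio of means, 23.4 for eGFP over scramble, and also the widest spread, since eGFP replicate 3 held 0.298 times the mean of the other 2. Of the 31-base words of IFI6, 19.3% occur in another gene on the same strand, so part of its reads could be assigned elsewhere. Next to IFI27, its relatives IFI27L1 and IFI27L2 were listed at 0 in at least 1 A549 library each and reached at most 2.47 and 2.47 CPM. IFI27L1 had a log2 fold change of 0.79 (SE 1.12) for eGFP over scramble.

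IFI44 and IFI44L are neighbours on the plus strand of chromosome 1, IFI44L (ENSG00000137959) from 78619902 to 78646145 and IFI44 (ENSG00000137965) from 78649796 to 78664078. IFI44 was at 33.4, 32.7 and 27.8 CPM with eGFP, 8.62, 8.48 and 6.78 CPM with SF3B2, 4.63, 6.0025 and 8.48 CPM with snaR-A, and 5.38, 4.10 and 3.20 CPM with scramble. IFI44L was at 19.6, 17.9 and 12.6 CPM with eGFP, 2.87, 3.56 and 2.76 CPM with SF3B2, 1.999, 2.28 and 3.70 CPM with snaR-A, and 2.30, 1.64 and 1.13 CPM with scramble. IFI44 had the smallest eGFP to scramble ratio of the 10, 7.40, and that of IFI44L was 9.89. None of the 31-base words of IFI44 and 0.126% of those of IFI44L recur in another gene on either strand.

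RSAD2 encodes viperin, a radical SAM enzyme that turns CTP into a chain-terminating analogue, and CMPK2 encodes a mitochondrial nucleotide kinase. The genes are divergent on chromosome 2, RSAD2 (ENSG00000134321) from 6865557 to 6898239 on the plus strand and CMPK2 (ENSG00000134326) from 6840570 to 6866635 on the minus strand, and they overlap by 1079 bases. RSAD2 was at 32.8, 32.2 and 21.7 CPM with eGFP, 5.90, 7.27 and 4.30 CPM with SF3B2, 2.21, 4.07 and 5.20 CPM with snaR-A, and 3.81, 2.32 and 2.15 CPM with scramble. CMPK2 was at 60.5, 62.2 and 43.4 CPM with eGFP, 9.59, 10.2 and 7.84 CPM with SF3B2, 4.10, 5.38 and 9.11 CPM with snaR-A, and 3.88, 3.16 and 3.28 CPM with scramble. The ratio of eGFP to scramble was 10.5 for RSAD2 and 16.1 for CMPK2, and in both genes the 3 eGFP libraries lay above all others. On either strand, 7.98% of the words of RSAD2 and 7.28% of those of CMPK2 recur in another gene, so reads from the overlap cannot be told apart if strand was not used.

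BST2 (ENSG00000130303, chromosome 19, 17402939 to 17405630, minus strand) was the only member of the set that A549 scramble held at a lower level than HEK293T scramble in every library. It was at 5.73, 5.71 and 3.61 CPM with eGFP, 1.01, 1.15 and 0.700 CPM with SF3B2, 0.808, 0.545 and 1.01 CPM with snaR-A, and 0.329, 0.363 and 0.433 CPM with scramble. The eGFP mean was 13.4 times the scramble mean. None of its 31-base words occur in another gene.

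SF3B2 libraries of A549 lay between eGFP and scramble for every gene of the set. These counts too are descriptions of libraries that guided the choice. Against eGFP, 10 of 10 lay past the threshold as lower and 0 as higher, where 0.802% of all genes tested were lower and 0.306% higher, and the median log2 fold change was -2.41. The SF3B2 mean was 12.7% (XAF1) to 27.2% (IFI6) of the eGFP mean. Against scramble, with the same SF3B2 libraries, 10 of 10 had a positive log2 fold change and no library overlapped, as was so in the higher direction for 8.61% of all genes tested. Of the 10, MX1 (1.11, SE 0.13), IFI6 (1.20, SE 0.10) and CMPK2 (1.43, SE 0.13) lay past the threshold as higher and 0 genes as lower. Of all genes tested, 0.0746% were higher and 0.00932% lower in that comparison. That count was not stable, being 5 without scramble replicate 3, which holds SF3B2 at 8773 CPM, and 0 without SF3B2 replicate 1, without SF3B2 replicate 2 or without scramble replicate 2, and nothing is read from it. Ratios of the means ran from 1.81 for IFI44L to 4.28 for IFI27.

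Set against snaR-A in A549, the SF3B2 libraries overlapped for all 10 genes. All 10 log2 fold changes were positive, from 0.21 for IFI44L to 0.61 for RSAD2, with a median of 0.43, and in the fit, given as a description, 0 lay past the threshold in either direction. Of all genes tested, 0.0694% were higher and 0.0231% lower. Without snaR-A replicate 3 the median was 0.77 and 1 of the 10 lay past it. The comparisons of SF3B2 with eGFP, scramble and snaR-A share the SF3B2 libraries, and those of eGFP, SF3B2 and snaR-A with scramble share the scramble libraries, so their values are set side by side only.

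**Figure D2:**
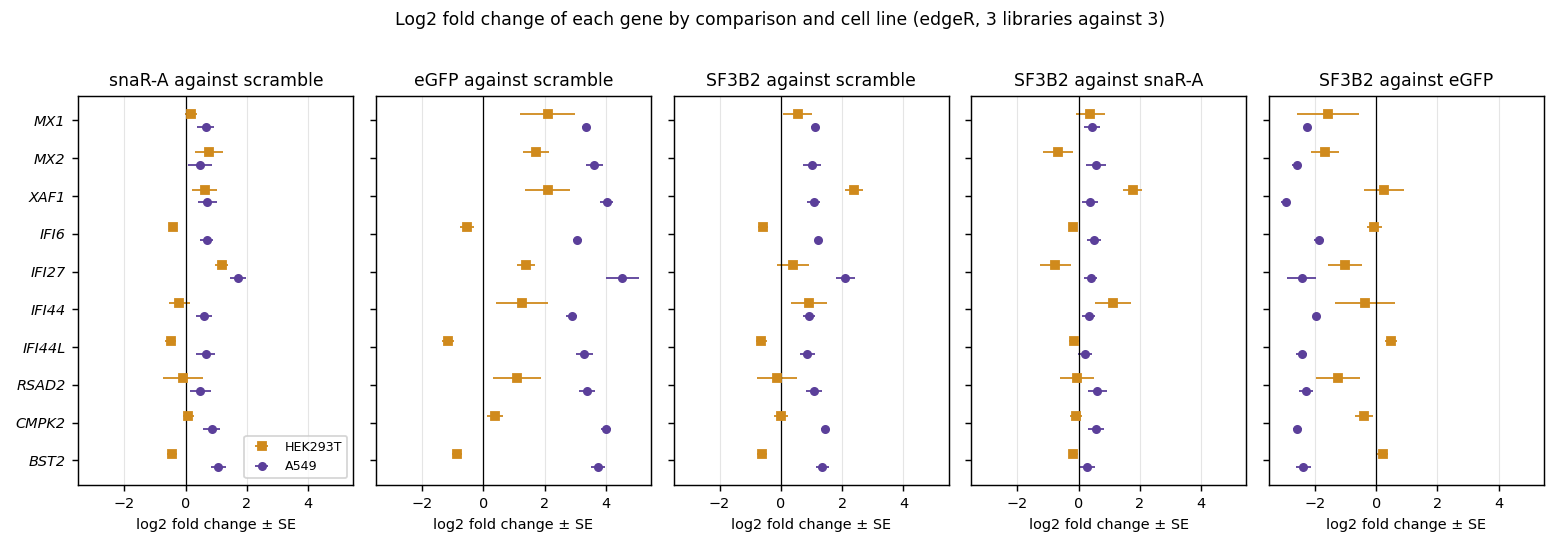
Log2 fold change of each gene in 5 comparisons, with its standard error as a bar, in HEK293T (squares) and A549 (circles), from edgeR with 3 libraries against 3. The A549 circles lie at 2.88 to 4.54 for eGFP against scramble and at -2.96 to -1.87 for SF3B2 against eGFP, while the HEK293T squares fall on both sides of 0 in every panel. MX2 has no square for SF3B2 against scramble, where it was filtered out for low counts.

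The comparison of snaR-A with scramble in A549 sets the noncoding RNA against its scrambled sequence. The level of snaR-A itself in these libraries was not examined here. This comparison shares its scramble libraries with the differences that guided the choice. Genes chosen for low values in scramble would tend to lie higher in any other group, so the shared direction below is no independent support. None of the 10 passed the threshold, higher or lower, and at an unadjusted p under 0.05 the edgeR test had 4 of them (IFI6, IFI27, CMPK2 and BST2), as it had 1329 of all 21662 genes tested. Among all genes tested, 0.00923% passed as higher and 0.00923% as lower. All 10 log2 fold changes were positive, with a median of 0.67 against 0.00058 over all genes tested. The libraries did not overlap for 4 of the 10, all higher with snaR-A, where 5.71% of all genes tested had every snaR-A library higher and 6.21% had every one lower.

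IFI27 had the largest log2 fold change of the 10. Its snaR-A libraries, at 2.04, 2.35 and 2.69 CPM, were all above the scramble libraries at 0.790, 0.460 and 0.922 CPM, a log2 fold change of 1.70 (SE 0.26, edgeR adjusted p = 0.443, and 0.1 in the two-sided exact permutation test, the smallest that 3 libraries against 3 allow). The DESeq2 Wald test gave an adjusted p of 2.46e-08 and edgeR's exactTest 9.58e-05 for the same gene, so its call depends on the tool. BST2 had a log2 fold change of 1.07 (SE 0.25), CMPK2 of 0.84 (SE 0.28) and IFI6 of 0.69 (SE 0.21), each with an edgeR adjusted p of 0.794. MX1, XAF1, IFI44, IFI44L, RSAD2 and MX2 lay between 0.45 and 0.70, and their libraries overlapped.

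Much of the shift rested on the library with conflicting labels. In snaR-A replicate 3 all 10 genes were above the mean of the other 2 snaR-A libraries, by a median of 1.73 times, from 1.23 for IFI27 to 2.04 for MX2, where the median over all genes above 1 CPM was 0.992. Without that library the median log2 fold change of the 10 fell from 0.67 to 0.34. Without it and scramble replicate 3, a setting chosen after seeing the data, the median was 0.20 and MX2 changed sign to -0.11. IFI27 kept a log2 fold change of 1.60 without snaR-A replicate 3 and 1.81 without both.

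In HEK293T, snaR-A against scramble moved the set in both directions. IFI27 rose and passed the threshold, and IFI6 and BST2 fell with adjusted p-values under 0.05 but by less than the fold limit. That makes 1 of 10 higher and 0 lower, where 3.95% of all genes tested were higher and 0.79% lower, so the share is near the background. The median log2 fold change was -0.0026, against -0.0072 over all genes tested.

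IFI27 was at 0.424, 0.352 and 0.333 CPM with snaR-A and at 0.204, 0.143 and 0.148 CPM with scramble. Its log2 fold change was 1.17 (SE 0.21, edgeR adjusted p = 0.00373), with no overlap between the libraries, which held 36 to 132 counts of it. With 1 library left out it stayed between 1.05 and 1.35, but with all 12 HEK293T libraries fitted together, IFI27 had an edgeR adjusted p of 0.0818 and lost the call. IFI6 was at 2.93, 2.68 and 2.80 CPM with snaR-A and at 3.74, 4.22 and 3.23 CPM with scramble, a log2 fold change of -0.40 (SE 0.11, edgeR adjusted p = 0.0216), which was above 0.05 when any 1 of 4 of the 6 libraries was left out, at most 0.0736. Library size alone and the joint fit of all 12 libraries also took the edgeR adjusted p of IFI6 above 0.05, to at most 0.162. BST2 was at 0.376, 0.382 and 0.341 CPM with snaR-A and at 0.494, 0.560 and 0.455 CPM with scramble, a log2 fold change of -0.45 (SE 0.15, edgeR adjusted p = 0.0474), which was above 0.05 with DESeq2 (0.111) and exactTest (0.0935) and when any 1 of 5 of the 6 libraries was left out. For both genes every snaR-A library was below every scramble library. IFI44L had no overlap either, with a log2 fold change of -0.50 (SE 0.18, edgeR adjusted p = 0.0571). Of all genes tested, 26.4% had every snaR-A library below every scramble library and 23.9% every one above, so 3 and 1 of the 10 are near the background. The other 6 genes overlapped, and XAF1, IFI44, RSAD2 and MX2 had no more than 27 counts in any of these 6 libraries.

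HEK293T cells given eGFP differed from those given scramble in 4 of the 10 genes past the threshold, 3 higher and 1 lower, where 8.1% of all genes tested were higher and 2.98% lower. Of the 3, MX2 and XAF1 had under 10 counts in at least 1 scramble library and passed the filter on low counts through the eGFP libraries, where they are high, so only the IFI27 call counts as support. With at least 10 counts in every library neither was tested, and 2 of 6 genes passed. MX2 was at 0.0783, 0.134 and 0.119 CPM with eGFP and 0.0277, 0.0210 and 0.0533 CPM with scramble, a log2 fold change of 1.71 (SE 0.43, edgeR adjusted p = 0.0129), from 6 to 35 counts a library. IFI27 was at 0.582, 0.307 and 0.415 CPM against 0.204, 0.143 and 0.148 CPM, a log2 fold change of 1.39 (SE 0.28, edgeR adjusted p = 0.00506). In both genes all eGFP libraries were above all scramble libraries, as they were for 28.2% of all genes tested. Without eGFP replicate 3 the log2 fold changes were 1.66 and 1.43 and both passed, whereas MX2 had an edgeR adjusted p of 0.0522 without scramble replicate 1.

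IFI44L went the opposite way. It was at 1.09, 0.926 and 1.39 CPM with eGFP and 2.16, 3.11 and 2.26 CPM with scramble, a log2 fold change of -1.15 (SE 0.20, edgeR adjusted p = 0.0029). BST2 fell as well, from 0.494, 0.560 and 0.455 CPM to 0.306, 0.238 and 0.288 CPM, by 0.86 on the log2 scale (SE 0.17, edgeR adjusted p = 0.00514), short of the fold limit. The eGFP libraries of both genes lay wholly below the scramble libraries, as they did for 31% of all genes tested, and both adjusted p-values stayed under 0.05 with any 1 library left out. In A549 the same pair of genes were 9.89 and 13.4 times as high with eGFP as with scramble, a difference between the lines that was not tested because the A549 side guided the choice.

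XAF1 was the last of the 3 called higher, at 0.0933, 0.0576 and 0.390 CPM with eGFP and 0.0346, 0.0525 and 0.0369 CPM with scramble, a log2 fold change of 2.10 (SE 0.73, edgeR adjusted p = 0.0451). Replicate 3, the HEK293T library with A549 markers, carried most of that value, and without it the log2 fold change was 0.86 with an edgeR adjusted p of 0.146. The call was lost as well without any 1 of the scramble libraries. MX1 was at 0.358, 0.384 and 3.77 CPM, IFI44 at 0.0336, 0.0384 and 0.314 CPM and RSAD2 at 0.0448, 0.0538 and 0.216 CPM in the eGFP libraries. For these genes replicate 3 stood at 10.2, 8.71 and 4.39 times the mean of the other 2, and none of their changes passed (log2 fold changes of 2.10, 1.26 and 1.10). Leaving that library out took the median over the 10 genes from 1.18 to 0.058. The part of the A549 markers in these values was not tested.

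Between SF3B2 and eGFP in HEK293T, 0 of the 10 passed the edgeR quasi-likelihood test after adjustment. In it 2 genes, MX2 and IFI44L, had an unadjusted p under 0.05, as had 4904 of all 22623 genes tested, so 2 of 10 is near the background. The exactTest called 1 gene. Over all genes tested, 0.0265% were higher and 0.106% lower. The standard error of the log2 fold change ran from 0.17 for BST2 to 1.01 for MX1, and the median of -0.38 moved to 0.25 without eGFP replicate 3, to -0.93 without SF3B2 replicate 3 and to -0.058 without both. Without SF3B2 replicate 3, 1 gene passed, and without both libraries 0 did.

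Against scramble, the HEK293T SF3B2 libraries held more XAF1. Its levels were 0.192, 0.191 and 0.265 CPM with SF3B2 and 0.0346, 0.0525 and 0.0369 CPM with scramble, a log2 fold change of 2.38 (SE 0.30, edgeR adjusted p = 0.00193). All SF3B2 libraries were above all scramble libraries, as for 24.1% of all genes tested, with 42 to 74 counts against 9 to 15. XAF1 passed the filter on low counts through the SF3B2 libraries, where it is high, and with at least 10 counts in every library it was not tested and 0 of 7 genes passed, so its call is given as a description. Without SF3B2 replicate 3 the log2 fold change was 2.20. That is 1 of 9 genes tested higher and 0 lower, where 5.76% of all genes tested were higher and 2.24% lower, and MX2 did not pass the filter on low counts. IFI6 fell by 0.58 (SE 0.16, edgeR adjusted p = 0.0293), IFI44L by 0.64 (SE 0.18, edgeR adjusted p = 0.0261) and BST2 by 0.63 (SE 0.17, edgeR adjusted p = 0.0254) on the log2 scale, each below every scramble library, as were 26.2% of all genes tested, but short of the fold limit. With 1 of the 6 libraries left out, the edgeR adjusted p of IFI6 reached 0.103, that of IFI44L 0.0742 and that of BST2 0.0874. Without SF3B2 replicate 3 their log2 fold changes were -0.74, -0.65 and -0.69 (edgeR adjusted p = 0.00815, 0.0413 and 0.0286). With a replicate block the edgeR adjusted p was 0.0659 for IFI6, 0.0256 for IFI44L and 0.0683 for BST2. The A549 markers were higher too, 3 of 8 tested past the threshold with a median log2 fold change of 1.61, and their part in these values was not tested. In HEK293T the comparisons of snaR-A, eGFP and SF3B2 with scramble all use the same scramble libraries. Lower values of IFI6, IFI44L and BST2 across them are therefore not separate results.

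XAF1 was also higher with SF3B2 than with snaR-A in HEK293T, where snaR-A libraries held 0.0611, 0.0863 and 0.0412 CPM. The log2 fold change was 1.77 (SE 0.32, edgeR adjusted p = 0.0335), and no libraries overlapped, the SF3B2 libraries being higher in this way for 19.4% of all genes tested. Without SF3B2 replicate 3 the log2 fold change was 1.60 (edgeR adjusted p = 0.0184). Without SF3B2 replicate 2, or without any of the 3 snaR-A libraries, the adjusted p rose to between 0.117 and 0.127. With a replicate block the edgeR adjusted p was 0.095, and fitting all 12 HEK293T libraries together lost the call too. XAF1 was 1 of 10 higher, with 0 lower, where 1.06% of all genes tested were higher and 0.402% lower. The A549 markers lay higher as well, 7 of 8 tested being positive with a median log2 fold change of 2.59 and 0 past the threshold. Their part in the XAF1 value was not tested.

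Whether snaR-A acted differently in the lines was tested as an interaction over 12 libraries. BST2 differed by 1.503 on the log2 scale, A549 minus HEK293T (SE 0.31, edgeR adjusted p = 0.0108), from log2 fold changes of 1.07 in A549 and -0.45 in HEK293T. IFI6 differed by 1.08 (SE 0.26, edgeR adjusted p = 0.0209), from 0.69 in A549 and -0.40 in HEK293T. For these 2 of 10 the adjusted p was under 0.05, where it was for 11.4% of all genes tested, so the count is near the background. The A549 side uses scramble, the reference of the differences that guided the choice. Without A549 snaR-A replicate 3 and scramble replicate 3 the differences were 1.43 and 0.79, with edgeR adjusted p-values of 0.0124 and 0.00768. The direction was not particular to snaR-A, since the other plasmids, set against the same scramble libraries, split the lines likewise. In HEK293T the means of BST2 and IFI6 were 0.55 and 0.69 times scramble with eGFP, and 0.64 and 0.66 times with SF3B2. In A549 they were 13.4 and 8.44 times scramble with eGFP, and 2.54 and 2.29 times with SF3B2. IFI27, for which every snaR-A library was above every scramble library in both lines, differed by 0.52 (SE 0.35, edgeR adjusted p = 0.376) between them.

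Within the A549 groups, the genes of the set often deviated in the same direction in a library. In eGFP replicate 3 all 10 genes were below the mean of the other 2, from 0.298 times for IFI27 to 0.902 times for MX2, and in SF3B2 replicate 3 all 10 were also below, from 0.649 times for BST2 to 0.926 times for IFI27. Scramble replicate 1 had 9 of 10 above the others, by a median of 1.40 times. Across genes above 1 CPM, the median ratio of these 3 libraries to their partners was between 0.983 and 0.988. In the HEK293T scramble and snaR-A libraries, 3 to 6 of the 10 lay above the mean of the other 2, but in HEK293T SF3B2 replicate 3 all 10 did, by a median of 1.41 times, and 9 of 10 did in HEK293T eGFP replicate 3, by a median of 1.70 times.

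**Figure D3:**
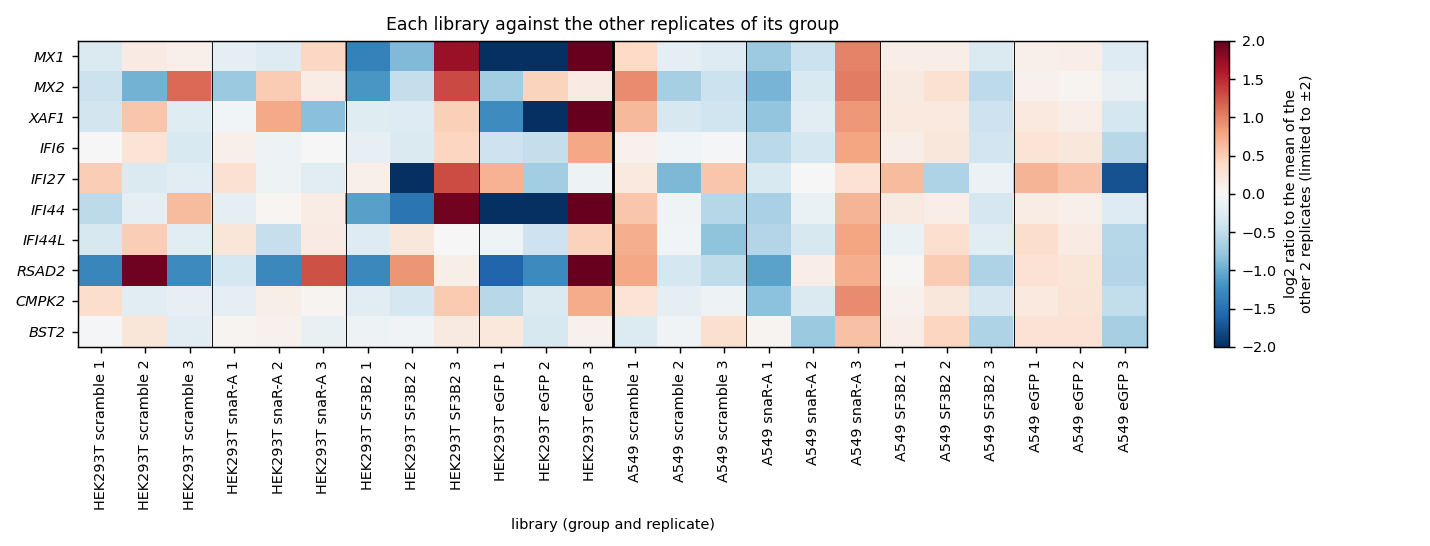
Each library divided by the mean of the other 2 libraries of its group, on a log2 colour scale limited to ±2, for the 10 genes (rows) and 24 libraries (columns). In A549 snaR-A replicate 3 all 10 genes are above its partners and in eGFP replicate 3 all 10 are below, and HEK293T eGFP replicate 3 stands out for MX1 at 10.2 times and IFI44 at 8.71 times.

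The order of group means was eGFP, SF3B2, snaR-A, scramble for all 10 genes in A549. It is a description of libraries that guided the choice, and the share of all genes with this order was not computed. Without replicate 3 of snaR-A and of scramble, MX2 had a log2 fold change of -0.11 for snaR-A against scramble, the reverse of the order. Between neighbours in that order, eGFP and SF3B2 were separated in every library for 10 genes, SF3B2 and snaR-A for 0, and snaR-A and scramble for 4. Over all genes tested, every SF3B2 library was below every eGFP library for 15.7%, and above or below every snaR-A library for 14.1% and 12.4%. HEK293T had 8 different orders among the 10 genes, and scramble was the highest group for IFI6, IFI44L and BST2.

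Beyond the set, the genes whose level across the 12 A549 libraries was most like the mean of the 10 were OAS2 (Pearson r = 0.998), IFIT1 (0.998), DTX3L (0.997), HERC6 (0.996) and OAS3 (0.996), among 14005 genes with at least 1 CPM on average. These values describe 4 groups of 3 libraries, in which the eGFP libraries lie apart from the rest, and are given without a test. OAS2 and OAS3 make the messenger that activates RNase L, IFIT1 binds foreign RNA 5′ ends, and HERC6 and DTX3L belong to families of ubiquitin ligases. The level of OAS2 was 162 ± 24.3 CPM with eGFP, 25.6 ± 3.54 CPM with SF3B2, 18.5 ± 7.78 CPM with snaR-A and 10.1 ± 1.10 CPM with scramble (SD, n = 3).

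The other genes of the pathway were taken from a list of 62, of which 60 matched the table and the others were not analysed here. Ligands were scarce but present in A549. IFNB1, which encodes interferon beta, was at 1.31 CPM on average with eGFP and 0.117 CPM with scramble, and the type III interferon genes IFNL2 and IFNL3 were at 2.06 and 1.93 CPM with eGFP and at 0.0958 and 0.129 CPM with scramble. Beside the counts by role that follow, 0.904% of all genes tested were higher with eGFP than with scramble in A549, and the lists, like the 10, were drawn up with earlier results known. With eGFP against scramble, 4 of the 5 ligand genes tested were higher past the threshold (IFNB1, IFNL1, IFNL2 and IFNL3), and the fifth, IFNE, was at 2.44 CPM with eGFP and 2.63 CPM with scramble. In HEK293T only 1 of the 7 ligand genes passed the filter on low counts.

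Of the 6 receptor genes, 0 passed the threshold in each of the 5 comparisons in A549. IFNAR1, a subunit of the type I receptor, was at 60.9 CPM with eGFP and 60.5 CPM with scramble, and IFNGR1 at 65.0 and 55.0 CPM. Among kinases and transcription factors, 3 of 8 tested were higher with eGFP than with scramble in A549. STAT2 was at 236 CPM against 58.5 CPM, whereas the kinase JAK1 was at 471 against 478 CPM. Of the sensors, 5 of 8 were higher, such as RIGI, which recognizes short double-stranded RNA with a 5′ triphosphate, at 367 against 56.7 CPM. MAVS, the adaptor that RIGI signals through, was at 218 against 227 CPM.

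Other effectors moved with the 10. Of 25 tested in A549, 24 were higher with eGFP than with scramble and 24 were lower with SF3B2 than with eGFP, with median log2 fold changes of 2.20 and -1.55, against 3.50 and -2.41 for the 10, which were chosen with such changes known, so the difference in size is not a result. EIF2AK2, the kinase PKR, was at 1057 CPM with eGFP and 426 CPM with scramble, and IFIT1 at 1050 and 104 CPM. Negative regulators were higher with eGFP in 3 of 5, among them USP18, which removes ISG15 and dampens receptor signalling, at 80.1 against 14.5 CPM. For snaR-A against scramble in A549, 0 genes of the 6 roles passed the threshold, although all 25 other effectors had a positive log2 fold change with a median of 0.35. That value includes snaR-A replicate 3, without which the median of the 10 fell from 0.67 to 0.34, and it was not computed without it. In HEK293T, eGFP against scramble gave 5 of 25 other effectors higher and 1 lower, and 1 of 7 sensors higher, where 8.1% of all genes tested were higher and 2.98% lower, so the sensors and the 1 lower effector are near the background. The A549 markers were higher too in that comparison (3 of 7 tested past the threshold, median log2 fold change 6.30), and their part in these counts was not tested. In it 25 other effectors were tested, but 23 in the HEK293T comparisons of snaR-A and of SF3B2 with scramble. Some thus passed the filter on low counts through the eGFP libraries. The 5 called higher are a description only, and were not counted without eGFP replicate 3.

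**Figure D4:**
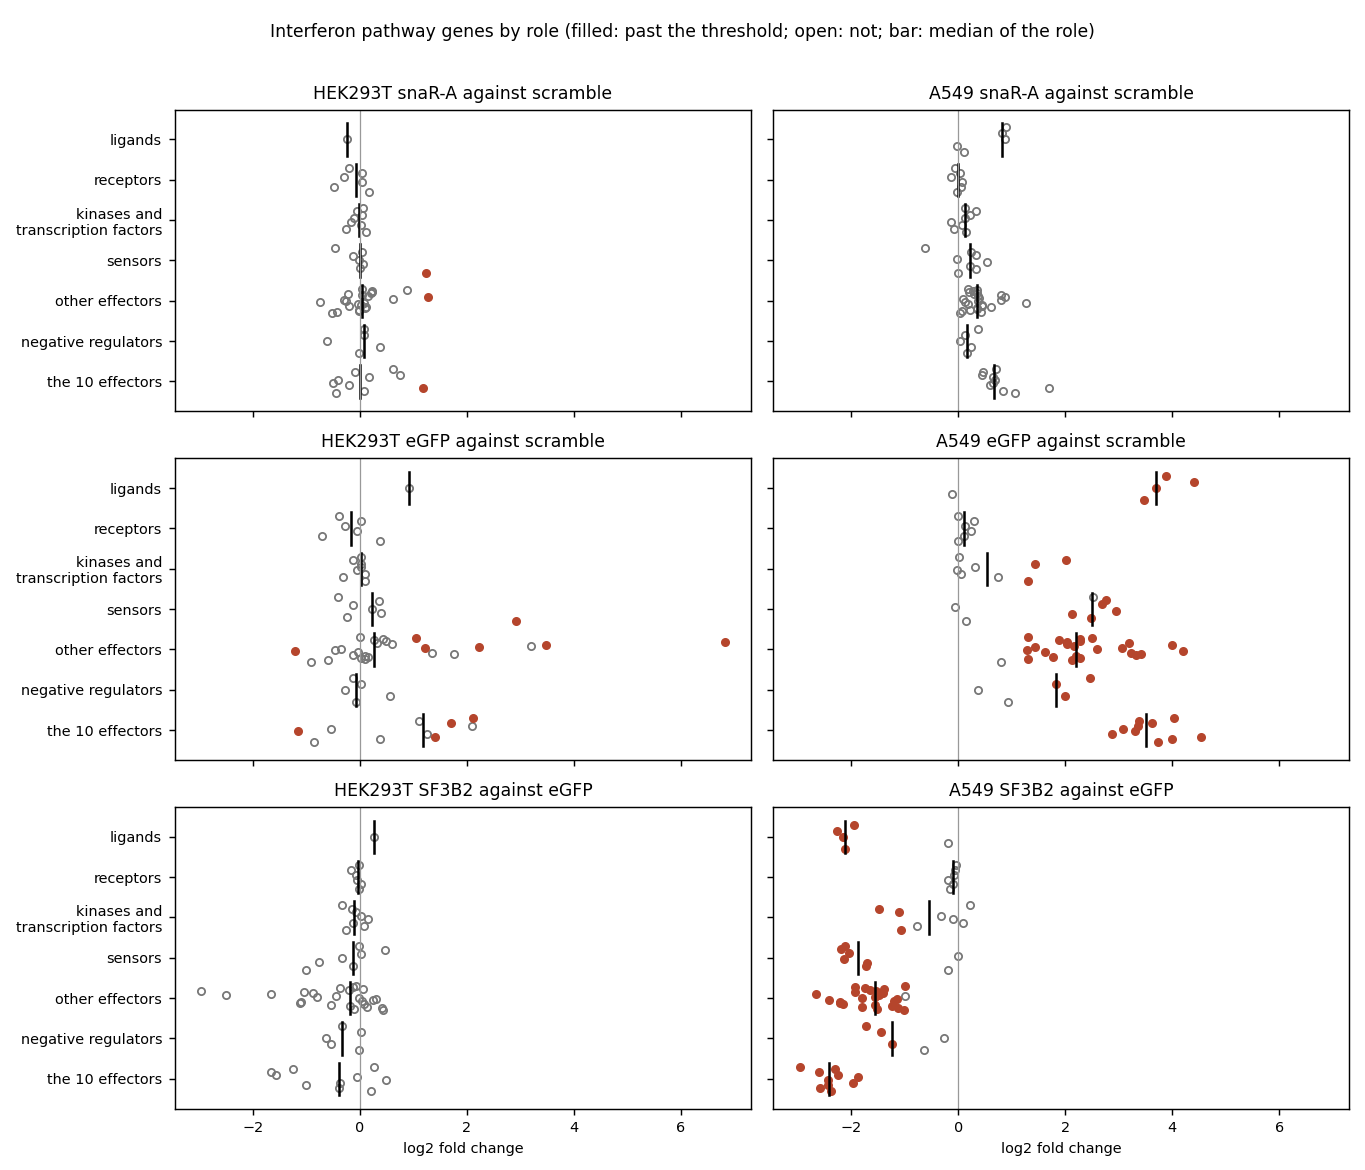
Log2 fold changes of the interferon pathway genes by role and of the 10 effectors, in 3 comparisons for each line. Filled points passed the threshold, open points did not, and bars are medians. In A549 with eGFP no receptor is filled while 24 of 25 other effectors and 10 of 10 of the set are filled, and SF3B2 against eGFP shows the reverse.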

How the data were processed

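RNA of 24 cultures was depleted of rRNA, enriched for poly(A) and made into stranded libraries. Per the labels, the authors trimmed reads with Trim Galore and quantified them with Salmon, naming hg38, and deposited estimated counts per Ensembl gene, not scaled between libraries. The transcript-to-gene step is not given in the sources used here. The counts were rounded before testing. Each comparison was fitted on its 6 libraries, over all genes kept by filterByExpr, with TMM scaling and edgeR's quasi-likelihood F-test (edgeR 4.0.16, R 4.3.3) and Benjamini-Hochberg adjustment. The interaction used 12 libraries. For single genes, CPM were tested by exact permutation, two-sided. Alternatives were exactTest, DESeq2 1.42.0, RLE scaling, library size alone, 2 other filters, all 12 libraries of a line in a joint fit, a replicate block and each library left out. The steps were tested on simulated data. Positions and exon lengths came from GENCODE 44 on GRCh38. A count of 0 allows up to 3 counts, 0.0115 to 0.0154 CPM, for counting error only. The genes named were the 10 and, as pathway examples, some of the most abundant of each role in A549, of which not all are reported here. The genes, lists and tests were chosen with earlier results of these data known.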

Additional observations from a re-analysis of the deposited data

Results flagged for a closer look

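IFI6 and BST2 were flagged for different log2 fold changes with snaR-A in the lines, by the interaction test over 12 libraries. In that test 11.4% of all genes tested had an adjusted p under 0.05, so 2 of the 10 is near the background. The A549 side rests on its scramble libraries, and genes chosen for low values there would tend to lie higher with snaR-A. For IFI6 the log2 fold change against scramble was higher in A549 than in HEK293T by 1.08 (SE 0.26, edgeR adjusted p = 0.0209), and for BST2 by 1.503 (SE 0.31, edgeR adjusted p = 0.0108). In A549 neither gene passed on its own (edgeR adjusted p = 0.794 for each), and in HEK293T both fell with an edgeR adjusted p under 0.05, every snaR-A library lying below every scramble library. IFI6 lost the call without HEK293T snaR-A replicate 2 (edgeR adjusted p = 0.0568), and BST2 kept it with each of the 12 libraries left out. The HEK293T changes on their own kept an edgeR adjusted p under 0.05 in 2 of 6 fits with a library left out for IFI6 and in 1 of 6 for BST2. With eGFP and with SF3B2 the means of both genes also lay below scramble in HEK293T and above it in A549. The direction was thus not particular to snaR-A.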

How the results depend on the processing

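The number of the 10 genes past the threshold changed with the setting. For A549 comparisons with eGFP or SF3B2 the counts are descriptions. Changes within 1.5 times, the replicate block and left-out libraries aside, gave 5 for HEK293T eGFP against scramble with exactTest, 9 for A549 against HEK293T with library size alone (IFI44L lower), 4 for A549 SF3B2 against scramble with no filter and with at least 10 counts in every library, and 3 for the difference between the lines with DESeq2. Other changes were larger. With exactTest the number was 1 for HEK293T SF3B2 against eGFP (otherwise 0), 1 for A549 snaR-A against scramble (otherwise 0) and 7 for A549 SF3B2 against scramble (otherwise 3). With DESeq2 the last 2 were 1 and 8. With at least 10 counts in every library it was 2 of 6 tested for HEK293T eGFP against scramble (otherwise 4), 0 of 7 for HEK293T SF3B2 against scramble (otherwise 1) and 5 of 7 for A549 against HEK293T (otherwise 8), fewer genes being tested. With all 12 libraries of a line fitted together it was 0 for HEK293T snaR-A against scramble (otherwise 1), 0 for HEK293T SF3B2 against snaR-A (otherwise 1) and 0 for A549 SF3B2 against scramble. With 1 library left out it ranged from 2 to 5 for HEK293T eGFP against scramble, 0 to 1 for HEK293T SF3B2 against eGFP, 0 to 1 for HEK293T SF3B2 against snaR-A, 0 to 5 for A549 SF3B2 against scramble, 9 to 10 for A549 SF3B2 against eGFP, 0 to 1 for A549 SF3B2 against snaR-A, and 1 to 3 for the difference between the lines (otherwise 2). Except where named, the cause was not tested. MX2 in A549 snaR-A against scramble lay between 0.021 and 0.84 with 1 library left out, the lowest without snaR-A replicate 3, and was -0.11 without replicate 3 of both groups.

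Replicate numbers were not used to pair the libraries. The residuals of same-numbered libraries had a median correlation of -0.0121 in HEK293T (from -0.0794 to 0.108) and -0.0104 in A549 (from -0.340 to 0.246). A median cannot show that no libraries were handled together, and the 4 libraries that stand apart are all numbered replicate 3. With a replicate block, HEK293T SF3B2 against snaR-A gave 0 genes (otherwise 1) and A549 SF3B2 against scramble 0 (otherwise 3). It also lost IFI27 in A549 eGFP against scramble and in A549 SF3B2 against eGFP, 9 genes in each (otherwise 10), and XAF1 in HEK293T eGFP against scramble, 3 genes (otherwise 4). In HEK293T, MX2, XAF1, IFI44 and RSAD2 rest on few counts, and how small a difference could have been detected in them was not tested.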
